A study of Mus musculus with 44 samples.

Results

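The mucin glycosylation enzymes described here are 10 genes, Galnt6, B3gnt6, Gcnt1, Gcnt3, Gcnt4, A4gnt, B4galnt3, Fut2, Fut9 and St6galnac1, of the 31484 genes named in the table of the gastric corpus. They were chosen by name, as a list of enzymes that start, branch, cap, fucosylate or sialylate the sugar chains of mucins. No cut on their level was used, but earlier results of these data were known when the list was made. Messenger RNA was measured by sequencing in 44 libraries from the gastric corpus of BalbC mice aged 13 months. HKATPase KO mice, which lack the beta subunit of the proton pump of the parietal cell, were compared with wild type (WT) mice, and each genotype was given either netazepide (NTZ, named yf in the labels), an antagonist of the gastrin receptor, or polyethylene glycol (PEG), the vehicle. Vehicle was given in 13 KO/PEG and 11 WT/PEG libraries, and netazepide in 11 KO/NTZ and 9 WT/NTZ libraries. All mice of a genotype carried the same constitutive allele, so the pump subunit was missing from birth and in every cell, and no group tested its loss in the adult stomach. The paper counts fewer KO/PEG mice than there are KO/PEG libraries, and a pair of WT/PEG libraries carries the same animal number, so p-values measure the spread between libraries, some of which may share a mouse.

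Gastric mucins are long proteins covered with sugar chains that are joined to serine and threonine. A GALNT enzyme adds the first sugar, N-acetylgalactosamine. Core enzymes then extend or branch it, and terminal enzymes cap the chain with fucose, sialic acid, N-acetylglucosamine or N-acetylgalactosamine. In the stomach the mucins differ by place: Muc5ac is made by the surface pit cells, and Muc6 by mucous neck and gland cells, where A4gnt adds the terminal alpha-linked N-acetylglucosamine that marks gland mucin. The libraries hold messenger RNA, and neither the enzymes nor the sugar chains were analysed here.

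The total estimated count per library was between 6065084 and 21945124, and levels are given as CPM, in which TMM normalization brings the libraries to 1 scale. A count of 3, taken as the smallest signal, was worth between 0.137 and 0.501 CPM. Atp4b, the deleted gene, was between 2891 and 5737 CPM in WT/PEG and between 2.28 and 17 CPM in KO/PEG, and no KO library of either treatment reached a WT library. Markers of the corpus cells moved with genotype. The summed level of 2 mucous neck markers (Muc6, Tff2) was 797 to 1385 CPM in WT/PEG and 1313 to 35793 CPM in KO/PEG, that of 4 surface pit markers was 84950 to 117507 CPM and 14470 to 105561 CPM, and that of 4 chief cell markers was 88861 to 208482 CPM and 2442 to 36553 CPM. A sum can hide single markers: the chief cell marker Pga5 was higher in KO/PEG (log2 fold change 2.46 ± 0.42, edgeR adjusted p = 1.68e-06). In these whole biopsies fewer cells of a type and less RNA per cell cannot be told apart. WT/NTZ replicate 9 had the lowest chief (61622 CPM), parietal (5890 CPM) and surface sums and the highest immune sum (328 CPM) of its group, and KO/PEG replicate 9 had the highest mitochondrial share of the KO libraries (14.5% of counts). KO/PEG replicate 9 also had the lowest mucous neck (1313 CPM) and surface pit (14470 CPM) sums of its group. Its smooth muscle sum was the highest of the group (2563 CPM). The lower ends of the KO/PEG mucous neck and surface pit ranges thus rest on this library. Squamous markers of the forestomach reached 2965 CPM in WT/NTZ and were above 500 CPM in 5 WT/NTZ libraries and 1 KO/NTZ library.

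In the corpus of KO/PEG mice the enzymes split. Galnt6, A4gnt, Gcnt1 and Gcnt3 were higher than in WT/PEG, B4galnt3, Fut9 and Fut2 were lower, and Gcnt4 did not pass the test. Of the 10 genes, 8 passed the filter on low counts, and 7 of these 8 were called at an adjusted p below 0.05 (edgeR's quasi-likelihood test, Benjamini-Hochberg adjustment over 14901 genes). The background was high, with 74.6% of all genes tested called in the same comparison (37.5% higher and 37.2% lower), so 7 of 8 is near the background and is not read as a result about these enzymes. The median log2 fold change of the 8 enzymes was 0.15, beside 0.00 for all genes tested.

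**Figure D1:**
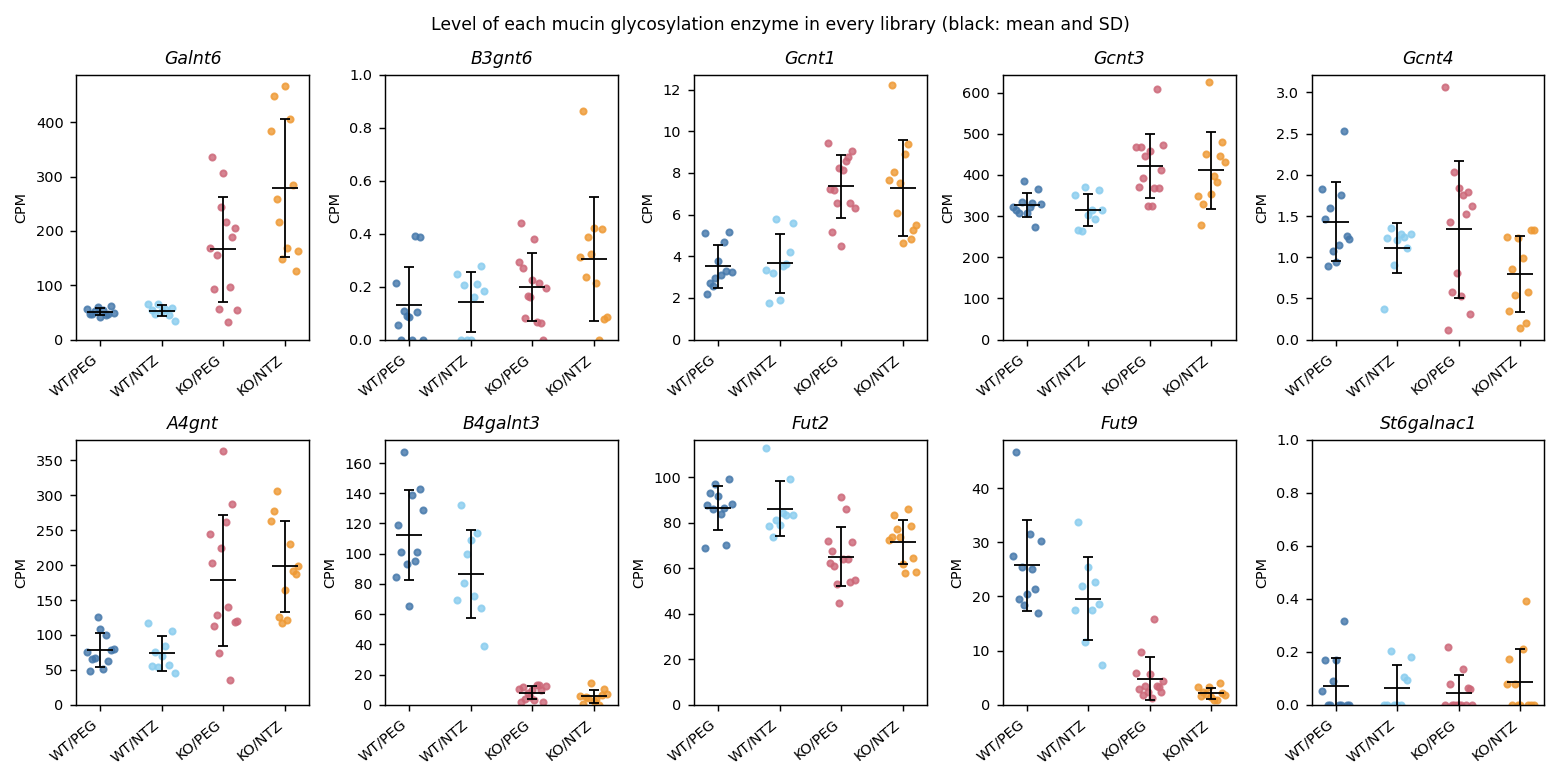
Level of each of the 10 enzymes (vertical axis, CPM) in every library of the 4 groups (points), with the mean and SD in black. B4galnt3 and Fut9 sit low in both KO groups, Galnt6 and A4gnt spread widely in them, up to 466.5 and 363 CPM, and B3gnt6 and St6galnac1 stay below 1 CPM in every library.

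Galnt6 encodes a transferase that adds the first N-acetylgalactosamine. Galnt6 was between 41.4 and 61 CPM in WT/PEG (median 48.1), between 33.3 and 65.8 CPM in WT/NTZ (median 53.5), between 32.3 and 336 CPM in KO/PEG (median 168) and between 125.9 and 466.5 CPM in KO/NTZ (median 258). The WT libraries lay close together. The KO/PEG libraries ran from below the lowest WT/PEG library to several times the highest, with 3 of them (replicates 9, 13 and 5) inside or below the WT range, whereas every KO/NTZ library was above every WT library. The log2 fold change was 1.70 ± 0.27 (SE; 3.25-fold) between KO/PEG and WT/PEG (edgeR adjusted p = 4.55e-07) and 2.40 ± 0.30 (5.28-fold) between KO/NTZ and WT/NTZ (adjusted p = 8.21e-09). Galnt6 lies on chromosome 15 (GRCm38, 100691813 to 100729376, minus strand).

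A4gnt encodes the glycosyltransferase that caps gland mucin. A4gnt was between 48 and 126.2 CPM in WT/PEG (median 76.2), between 45.1 and 116.6 CPM in WT/NTZ (median 69.5), between 36.1 and 363 CPM in KO/PEG (median 140) and between 116.6 and 306 CPM in KO/NTZ (median 192). KO/PEG overlapped WT/PEG at its lower end, and KO/PEG replicate 10 was the lowest of all 44 libraries. KO/NTZ had no library in the WT/NTZ range except at its edge, where the highest WT/NTZ and the lowest KO/NTZ library were both at 116.6 CPM. The log2 fold change was 1.18 ± 0.24 (2.27-fold) between KO/PEG and WT/PEG (edgeR adjusted p = 4.23e-05) and 1.43 ± 0.27 (2.70-fold) between KO/NTZ and WT/NTZ (adjusted p = 1.25e-05). A4gnt lies on chromosome 9 (GRCm38, 99612502 to 99622367, plus strand).

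The upstream sequences of Galnt6 and A4gnt are shown because both genes were higher in KO and followed Muc6 from library to library in KO/PEG. Each is the 250 bases before the start given by RefSeq (GRCm38.p6), 5′ to 3′ on the strand of the gene, with GGGCGG on either strand in capitals.
Galnt6, chr15:100729377-100729626, minus strand: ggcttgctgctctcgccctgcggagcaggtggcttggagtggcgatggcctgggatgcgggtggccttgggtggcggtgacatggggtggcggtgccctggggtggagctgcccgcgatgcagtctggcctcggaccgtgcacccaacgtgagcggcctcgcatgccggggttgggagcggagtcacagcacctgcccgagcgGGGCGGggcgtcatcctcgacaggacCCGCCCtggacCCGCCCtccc
A4gnt, chr9:99612252-99612501, plus strand: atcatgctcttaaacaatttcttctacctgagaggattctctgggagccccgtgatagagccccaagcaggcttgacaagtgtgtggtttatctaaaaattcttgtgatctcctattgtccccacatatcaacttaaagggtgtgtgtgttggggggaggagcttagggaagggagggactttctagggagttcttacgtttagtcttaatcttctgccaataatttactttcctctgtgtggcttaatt
The windows were unlike in base composition: G and C made up 72.8% of the Galnt6 window, more than in 94% of the 32851 promoters of the table, and 43.6% of the A4gnt window, more than in 20.1%. The Galnt6 window held 22 CG pairs and 3 copies of GGGCGG, and the A4gnt window 2 CG pairs and no copy. The window of B4galnt3, which was lower in KO, also held 3 copies of GGGCGG, at 60.8% G and C. GGGCGG stood in 32.7% of all windows of this length. TATAAA (12.4% of all windows), TGCGCA (6.43%) and TGTTTAC (3.17%) stood on neither strand of these Galnt6 and A4gnt windows. The table has another Galnt6 window (chr15:100720478-100720727, 59.6% G and C), which holds 3 matches to TGCGCA and no GGGCGG. It is not printed because it lies before the start of ENSMUST00000161514, which was at 0 in every library. The letters were searched after the levels were known, and a match is only a match of letters. Of the 10 enzymes, 5 have a promoter in that table (A4gnt, B4galnt3, Galnt6, Gcnt1 and Gcnt4), and B3gnt6, Gcnt3, Fut2, Fut9 and St6galnac1 do not.

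The branching enzymes of the GCNT family add an N-acetylglucosamine branch to the first sugars of the chain. Gcnt3, the mucin-type member that makes the core 2 and core 4 branches, was the most abundant of the 10 enzymes and differed little: it was between 274 and 385 CPM in WT/PEG (median 322), between 264 and 370 CPM in WT/NTZ (median 314), between 325 and 610 CPM in KO/PEG (median 412) and between 278 and 626 CPM in KO/NTZ (median 397). The groups overlapped, and the log2 fold change of Gcnt3 was 0.37 ± 0.10 between KO/PEG and WT/PEG (edgeR adjusted p = 0.000999) and 0.38 ± 0.11 between KO/NTZ and WT/NTZ (adjusted p = 0.0019). Gcnt1, which makes core 2 in many tissues, was low, between 2.18 and 5.14 CPM in WT/PEG (median 3.26), between 1.74 and 5.80 CPM in WT/NTZ (median 3.52), between 4.48 and 9.42 CPM in KO/PEG (median 7.24) and between 4.64 and 12.2 CPM in KO/NTZ (median 7.52). The KO and WT ranges of Gcnt1 overlapped, since the lowest libraries of both KO groups lay below the highest of both WT groups. Gcnt1 was 2.08-fold higher in KO/PEG than in WT/PEG (log2 fold change 1.06 ± 0.18, edgeR adjusted p = 1.59e-06) and 1.97-fold higher in KO/NTZ than in WT/NTZ (0.98 ± 0.20, adjusted p = 3.12e-05). Gcnt4, another core 2 enzyme, was near the floor, with medians of 1.26 CPM in WT/PEG, 1.23 CPM in WT/NTZ, 1.53 CPM in KO/PEG and 0.851 CPM in KO/NTZ. Its log2 fold change between KO/PEG and WT/PEG was -0.07 ± 0.31 (edgeR adjusted p = 0.843), so a difference in either direction of the size of that of Gcnt3 was within its error.

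B3gnt6 makes core 3, a structure known from mucins of the colon, and St6galnac1 adds sialic acid to the first sugar, which gives sialyl-Tn. B3gnt6 was at most 0.389 CPM in WT/PEG, 0.279 CPM in WT/NTZ, 0.439 CPM in KO/PEG and 0.862 CPM in KO/NTZ, and was at 0 in 8 of 44 libraries. St6galnac1 was at most 0.391 CPM in any library and was at 0 in 25 of 44. Both were at or near the level of 3 counts in all groups and were left out by the filter, so a change of either was not detectable at this depth. Muc2, the intestinal mucin, was also low, at most 0.64 CPM in WT/PEG, 0.65 CPM in WT/NTZ, 0.971 CPM in KO/PEG and 1.70 CPM in KO/NTZ.

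B4galnt3 encodes an enzyme that adds N-acetylgalactosamine to terminal N-acetylglucosamine, which gives the LacdiNAc ending of surface mucin. B4galnt3 had the largest difference of the 8 enzymes tested. It was between 65.6 and 167 CPM in WT/PEG (median 101), between 38.9 and 132 CPM in WT/NTZ (median 80.3), between 1.65 and 13.2 CPM in KO/PEG (median 9.56) and between 0 and 14.3 CPM in KO/NTZ (median 5.15). No KO library reached any WT library. B4galnt3 was 13.8-fold lower in KO/PEG than in WT/PEG (log2 fold change -3.79 ± 0.33, edgeR adjusted p = 5.7e-13) and 14.6-fold lower in KO/NTZ than in WT/NTZ (-3.87 ± 0.36, adjusted p = 1.01e-11). The surface pit markers had differences closer to 0, all outside the interval of 2 SE of B4galnt3 (-4.45 to -3.13). Of 4 (Muc5ac, Tff1, Gkn1, Gkn2), 3 were lower in KO/PEG, none was at 0 in any group, and the log2 fold change was -1.76 ± 0.40 for Muc5ac, -1.31 ± 0.21 for Gkn1, -1.31 ± 0.23 for Gkn2 and 0.00 ± 0.22 for Tff1. Of the 4 chief cell markers, Pgc was inside that interval (-3.93 ± 0.41). Gif (-2.08 ± 0.50), Bhlha15 (-1.52 ± 0.23) and Pga5 (2.46 ± 0.42) were outside it. The part of the surface cells and of the chief cells in the level of B4galnt3 was not tested.

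B4galnt3 spans 120203073 to 120294559 on the minus strand of chromosome 6 (GRCm38), and the table gives it as a pair of transcripts that share 19 of their 20 exons apart from 21 bases at the 3′ end. ENSMUST00000057283 codes for the enzyme and starts with an exon that opens the reading frame. ENSMUST00000125341, annotated in GENCODE vM21 as a processed transcript with no reading frame, starts with another exon that lies in the first intron of the coding transcript. The first exons are shown because they carry nearly all the letters that tell the transcripts apart, here in lower case throughout.
ENSMUST00000057283, chr6:120294391-120294559, minus strand, 169 bases: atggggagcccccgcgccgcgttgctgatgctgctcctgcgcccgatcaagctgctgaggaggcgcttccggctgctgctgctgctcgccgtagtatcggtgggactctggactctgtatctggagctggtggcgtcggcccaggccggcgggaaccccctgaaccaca
ENSMUST00000125341, chr6:120242563-120242643, minus strand, 81 bases: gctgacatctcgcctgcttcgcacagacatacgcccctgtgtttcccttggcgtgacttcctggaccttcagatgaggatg
The transcript with the internal first exon held 80.8% of the mean count of B4galnt3 and the coding transcript 19.2%. The coding transcript was between 15.2 and 51.2 CPM in WT/PEG (median 23.4), between 2.07 and 20.8 CPM in WT/NTZ (median 13.9), and at most 2.23 CPM in KO/PEG and 2.12 CPM in KO/NTZ, where 8 of 13 and 8 of 11 libraries were at 0. The transcript with the internal first exon was between 50.4 and 122 CPM in WT/PEG (median 77.8), between 36.8 and 115 CPM in WT/NTZ (median 70.6), between 1.65 and 13.2 CPM in KO/PEG (median 8.59) and between 0 and 12.9 CPM in KO/NTZ (median 5.15). Both were lower in KO/PEG than in WT/PEG in an edgeR fit over 30328 transcripts, of which 53.2% were called: the log2 fold change of ENSMUST00000057283 was -5.78 ± 0.84 (adjusted p = 2.42e-07) and that of ENSMUST00000125341 was -3.48 ± 0.36 (adjusted p = 1.69e-10). Whether these differ from each other was not tested. The coding share of the gene was between 13.7% and 39.7% in WT/PEG and between 5.32% and 28.8% in WT/NTZ, and the level of the coding transcript did not pass the test between these groups (-1.16 ± 0.78, adjusted p = 1). All 169 bases of the coding first exon are also exonic in D330020A13Rik on the other strand. D330020A13Rik was between 1.09 and 5.44 CPM in WT/PEG and at most 0.327 CPM in KO/PEG. Whether the counting used the strand is not given in the sources used here, so reads of that exon cannot be assigned to one of these genes with certainty.

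**Figure D2:**
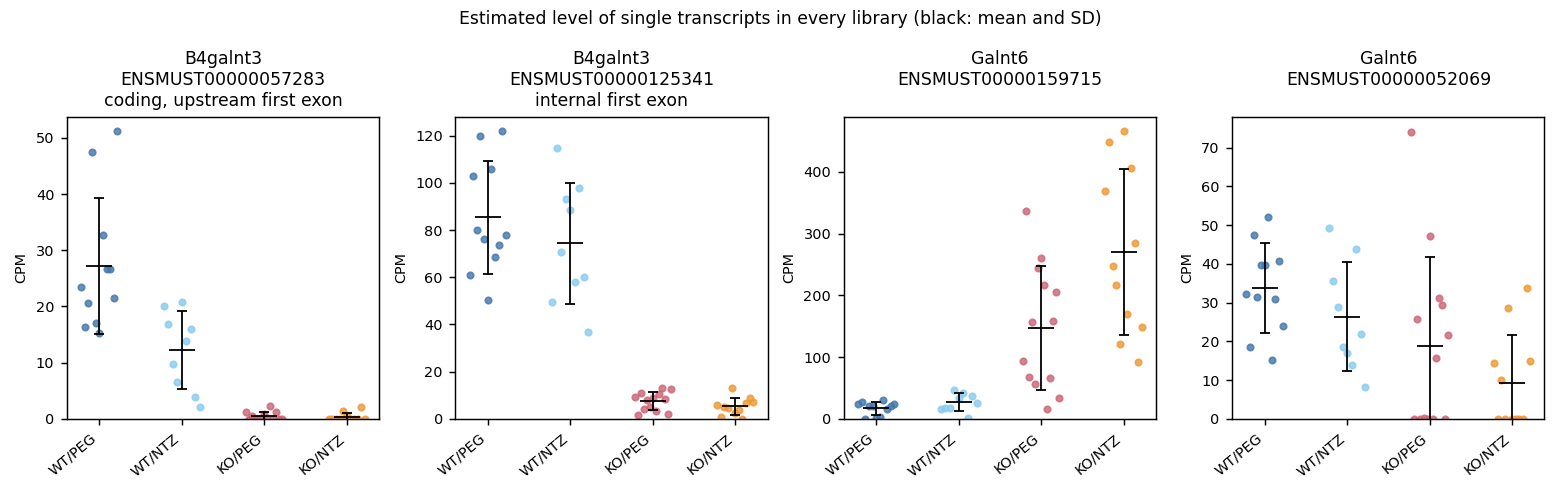
Estimated level (vertical axes, CPM) of the B4galnt3 transcripts ENSMUST00000057283 and ENSMUST00000125341 and of the Galnt6 transcripts ENSMUST00000159715 and ENSMUST00000052069 in every library (points; mean and SD in black). Both B4galnt3 transcripts are low in the KO groups, and ENSMUST00000159715 of Galnt6 is high in them.

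For Galnt6 the table lists 3 transcripts with the same coding bases. ENSMUST00000161514, which has a start of its own at 100720477, was at 0 in all 44 libraries. ENSMUST00000159715 and ENSMUST00000052069 share the start at 100729376 and differ by 2 and 4 bases that the other lacks, so the split between them rests on few reads. ENSMUST00000159715 had medians of 20.3 CPM in WT/PEG, 25.1 CPM in WT/NTZ, 156 CPM in KO/PEG and 248 CPM in KO/NTZ, and ENSMUST00000052069 had medians of 32.2, 21.9, 15.6 and 0 CPM. In the transcript fit ENSMUST00000159715 was higher in KO/PEG than in WT/PEG (log2 fold change 3.09 ± 0.52, edgeR adjusted p = 3.1e-06), and ENSMUST00000052069 did not pass the test (-0.83 ± 0.89, adjusted p = 0.443). Within WT/PEG alone the share of ENSMUST00000052069 ran from 33.1% to 99.6%, which shows how loosely the estimate holds. The Gcnt1 transcripts were as loose, with the share of ENSMUST00000169897 between 0% and 100% in WT/PEG. Fut9 was nearly all 1 transcript (ENSMUST00000084770, 99.5% of the mean count), and A4gnt, Gcnt3, Gcnt4, Fut2, B3gnt6 and St6galnac1 were listed with 1 transcript each.

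The fucosyltransferases were both lower in KO. Fut9 adds fucose to N-acetylglucosamine within the chain, which gives the Lewis x antigen. It was between 17 and 46.6 CPM in WT/PEG (median 25.1), between 7.30 and 33.7 CPM in WT/NTZ (median 18.6), between 1.30 and 15.8 CPM in KO/PEG (median 3.44) and between 0.848 and 3.99 CPM in KO/NTZ (median 2.02). The highest KO/PEG library, replicate 9, was just below the lowest WT/PEG library, and the next was at 9.71 CPM. Fut9 was 5.26-fold lower in KO/PEG than in WT/PEG (log2 fold change -2.39 ± 0.28, edgeR adjusted p = 1.44e-09) and 8.77-fold lower in KO/NTZ than in WT/NTZ (-3.13 ± 0.33, adjusted p = 1.75e-10). Of the 4 chief cell markers (Pgc, Pga5, Gif, Bhlha15), 3 were lower in KO/PEG and 1, Pga5, was higher. The part of these cells in the level of Fut9 was not tested.

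Fut2, the secretor enzyme that adds the terminal fucose of the H antigen, differed less. It was between 68.8 and 99.4 CPM in WT/PEG (median 87.9), between 73.8 and 113 CPM in WT/NTZ (median 83.3), between 44.6 and 91.1 CPM in KO/PEG (median 64.1) and between 57.9 and 86.1 CPM in KO/NTZ (median 73.8). The groups overlapped. Fut2 was 1.33-fold lower in KO/PEG than in WT/PEG (log2 fold change -0.41 ± 0.09, edgeR adjusted p = 0.000107) and 1.20-fold lower in KO/NTZ than in WT/NTZ (-0.27 ± 0.10, adjusted p = 0.0153). The latter call was lost without WT/NTZ replicate 1 (-0.20, adjusted p = 0.0692).

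**Figure D3:**
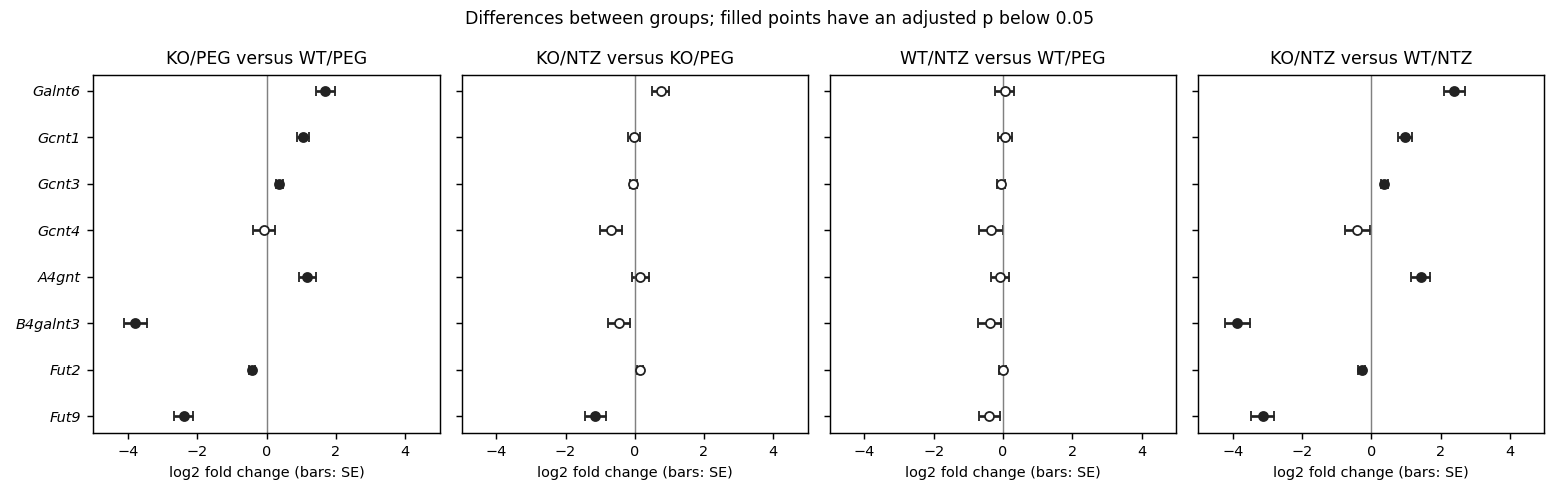
Log2 fold change (horizontal axis) with its SE for the 8 enzymes tested in 4 comparisons. Filled points passed the test: 7 in KO/PEG versus WT/PEG, Fut9 alone in KO/NTZ versus KO/PEG, none in WT/NTZ versus WT/PEG, and 7 in KO/NTZ versus WT/NTZ.

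The comparison of genotypes under NTZ contrasts other groups than the one under PEG, but both came from 1 fit with a shared filter and spread, and 1 animal number stands in both KO/PEG and KO/NTZ. It called 7 of the 8 enzymes, 4 higher and 3 lower, beside 72.4% of all genes tested (35.6% higher and 36.8% lower), and these were the same 7, each in the same direction. As under PEG, 7 of 8 is near the background and is not read as a result about these enzymes. The share of all genes called in both comparisons in the same direction was not computed. The values per enzyme are given above. The median log2 fold change of the 8 was 0.06, beside -0.03 for all genes tested.

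The order of the enzymes was compared on a scale per length, as TPM. In WT/PEG the median was 84.5 TPM for Gcnt3, followed by 33.5 TPM for Fut2, 31.7 TPM for B4galnt3, 29.2 TPM for A4gnt and 14.5 TPM for Galnt6. Fut2, B4galnt3 and A4gnt had overlapping ranges in WT/PEG, whereas Gcnt3 was above all of them in every library. In KO/NTZ the medians were 104 TPM for Gcnt3, 91.8 TPM for Galnt6 and 90.1 TPM for A4gnt, with overlapping ranges, then 28.5 TPM for Fut2, and B4galnt3 was at 1.88 TPM. Fut9 was at 2.2 TPM in WT/PEG and 0.208 TPM in KO/NTZ, Gcnt1 at 0.821 and 1.80 TPM, and Gcnt4 at 0.278 and 0.205 TPM. In KO/PEG the medians were 135 TPM for Gcnt3, 74 TPM for A4gnt, 52.9 TPM for Galnt6, 23.7 TPM for Fut2, 3.51 TPM for B4galnt3 and 1.94 TPM for Gcnt1.

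NTZ was compared with PEG within KO mice, which asks whether blocking the gastrin receptor changed the enzymes. Of the 8 enzymes 1 passed the test, beside 5.56% of all genes tested (2.97% higher and 2.6% lower). Fut9 was 2.20-fold lower in KO/NTZ than in KO/PEG (log2 fold change -1.14 ± 0.31, edgeR adjusted p = 0.0205), with ranges that overlapped, since 8 of 13 KO/PEG libraries were at or below the highest KO/NTZ library. The Fut9 call rested on few libraries. It was lost without KO/PEG replicate 9 (-0.84, adjusted p = 0.0608), the library with the highest mitochondrial share, without KO/PEG replicate 3 (adjusted p = 0.0513), and when only the KO groups were fitted (-1.16, adjusted p = 0.095). No chief cell marker of the 4 passed the test in this comparison, and their median log2 fold change was -0.58. Their summed level was between 2442 and 36553 CPM in KO/PEG and between 3006 and 20402 CPM in KO/NTZ. The part of the chief cells in the Fut9 difference was not tested. Galnt6 was 1.68-fold higher in KO/NTZ (0.75 ± 0.25, unadjusted p = 0.00514 by edgeR) and missed the threshold (adjusted p = 0.0697). It passed with DESeq2 (adjusted p = 0.0441) and with limma-trend (0.90, adjusted p = 0.0371). The KO/PEG and KO/NTZ ranges of Galnt6 overlapped.

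The other enzymes did not pass the test in KO mice. The log2 fold change was 0.16 ± 0.24 for A4gnt, -0.02 ± 0.17 for Gcnt1, -0.04 ± 0.10 for Gcnt3, -0.68 ± 0.32 for Gcnt4, -0.46 ± 0.32 for B4galnt3 and 0.14 ± 0.09 for Fut2. For A4gnt the interval of 2 SE ran from -0.32 to 0.63, and for B4galnt3 from -1.10 to 0.19. In the same comparison the 3 enterochromaffin-like and neuroendocrine markers were lower and 3 of 4 smooth muscle markers were higher. Their part in the values of the enzymes was not tested.

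In WT mice NTZ gave no call among the 8 enzymes, beside 1.03% of all genes tested (1.03% higher and 0.00671% lower). None had an unadjusted p under 0.05 with edgeR, and DESeq2 and limma-trend also called 0. The log2 fold changes ran from -0.40 ± 0.30 for Fut9 and -0.38 ± 0.33 for B4galnt3 to 0.06 ± 0.20 for Gcnt1. Whether NTZ acted differently in the genotypes was tested as an interaction. It called 0 of the 8, beside 0.96% of all genes tested (0.242% higher and 0.718% lower), with 0 at an unadjusted p under 0.05 and 0 by DESeq2 or limma-trend. The largest were -0.74 ± 0.43 for Fut9 (edgeR adjusted p = 0.541) and 0.70 ± 0.38 for Galnt6 (adjusted p = 0.503), and neither passed.

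Muc6, the gland mucin that carries the A4gnt cap, was between 62.9 and 330 CPM in WT/PEG and between 180 and 7651 CPM in KO/PEG (log2 fold change 3.87 ± 0.46, edgeR adjusted p = 1.45e-09). Its partner Tff2 was 3.75 ± 0.42 higher on that scale (adjusted p = 3.91e-10), and neither passed the test between KO/NTZ and KO/PEG. The interval of 2 SE was 2.95 to 4.78 for Muc6, above that of A4gnt (0.69 to 1.67) and that of Galnt6 (1.17 to 2.24). Within the KO groups, 32 relations of the 8 enzymes with Muc6 and Muc5ac were computed from log2 CPM. In KO/PEG, Galnt6 followed Muc6 with Spearman's rho 0.88 (permutation p = 0.00013, adjusted 0.00416) and Pearson's r 0.81 (permutation p = 0.00081, adjusted 0.013). A4gnt followed Muc6 with rho 0.79 (permutation p = 0.00203, adjusted 0.0325) and r 0.90 (permutation p = 4e-05, adjusted 0.00128). Without the libraries farthest from the median of Muc6, replicates 9 and 10, r was 0.88 for Galnt6 and 0.91 for A4gnt. All tests were two-sided. How many of the other genes tested follow Muc6 as closely was not computed.

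**Figure D4:**
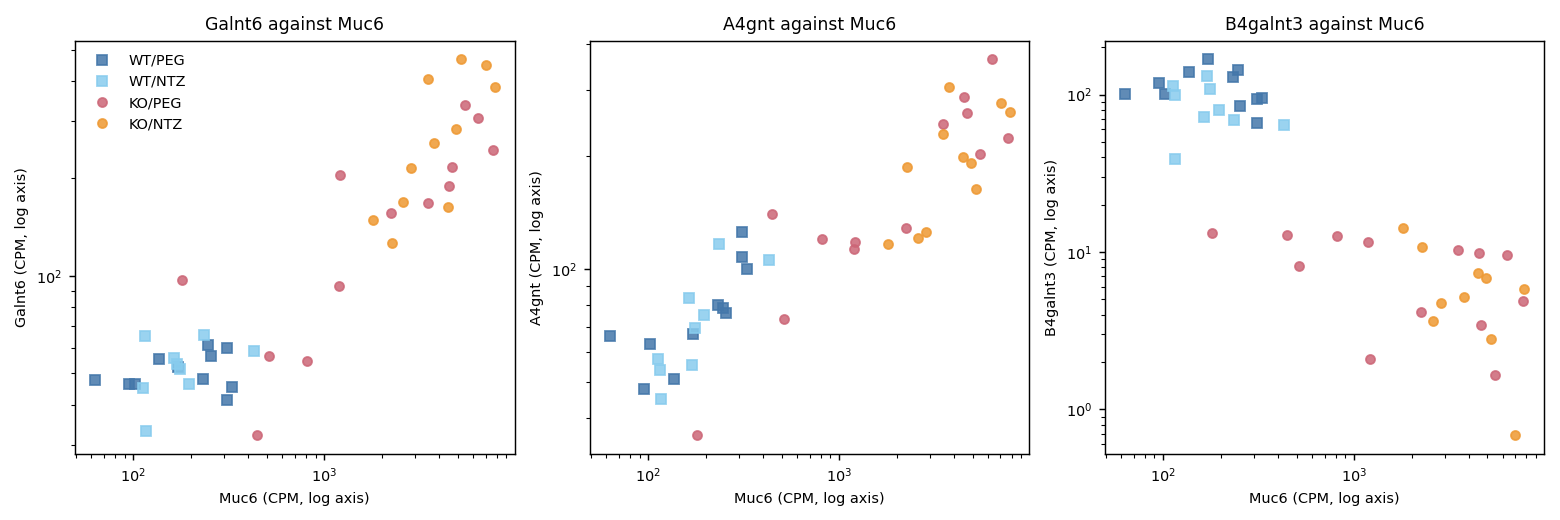
Level of Galnt6, A4gnt and B4galnt3 (vertical axes, CPM, log) against Muc6 (horizontal axis, CPM, log) in each library, WT as squares and KO as circles. In KO/PEG Galnt6 and A4gnt are high where Muc6 is high, and 1 KO/NTZ library in which B4galnt3 was at 0 is not drawn in its panel.

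In KO/NTZ the signs were the same. Galnt6 with Muc6 passed by Pearson's r and not by Spearman's rho, and A4gnt with Muc6 passed by neither: Galnt6 had rho 0.77 (permutation p = 0.00771, adjusted 0.0617) and r 0.78 (adjusted 0.0488), and A4gnt had rho 0.65 (permutation p = 0.036, adjusted 0.144) and r 0.68 (adjusted 0.0869). Gcnt3 ran against Muc6 in KO/NTZ (rho -0.75, permutation p = 0.0113, adjusted 0.0724, and r -0.77, adjusted 0.0488). Without the libraries farthest from the median of Muc6, r in KO/NTZ was 0.74 for Galnt6, 0.51 for A4gnt and -0.66 for Gcnt3, and none passed after adjustment. Within animals numbered 100 or above, 7 KO/PEG libraries, rho with Muc6 was 0.96 for Galnt6 (exact permutation p = 0.00278) and 0.43 for A4gnt (exact permutation p = 0.354). Within the 6 KO/PEG libraries numbered below 100, rho was 0.66 for both (exact permutation p = 0.175). No relation with Muc5ac passed after adjustment over all KO libraries. The nearest to it was Galnt6 in KO/NTZ (rho -0.77, permutation p = 0.00768, adjusted 0.0617). Some passed in subsets. Without the libraries farthest from the median of Muc5ac, 9 KO/NTZ libraries gave rho -0.87 for Galnt6 (permutation p = 0.00435, adjusted 0.0487), 0.85 for Gcnt4 (permutation p = 0.00609, adjusted 0.0487) and 0.82 for B4galnt3 (permutation p = 0.0108, adjusted 0.0694), with r -0.80, 0.81 and 0.83 (each adjusted 0.0365). In the 7 KO/PEG libraries numbered 100 or above B4galnt3 followed Muc5ac with r 0.93 (exact permutation p = 0.000794, adjusted 0.0127) and rho 0.89 (exact permutation p = 0.0123, adjusted 0.0984).

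Some pairs of the enzymes varied together, and others did not. In KO/PEG Spearman's rho was 0.03 between Galnt6 and Fut2 and -0.13 between A4gnt and Fut9. As a description, Spearman's rho between Galnt6 and B4galnt3 was -0.71 over 13 KO/PEG, -0.78 over 11 KO/NTZ, 0.35 over 11 WT/PEG and -0.12 over 9 WT/NTZ libraries. Between B4galnt3 and Fut9 it was 0.73 in KO/PEG, 0.74 in KO/NTZ, 0.77 in WT/NTZ and 0.21 in WT/PEG. Between A4gnt and Galnt6 it was 0.60 in KO/PEG, 0.46 in KO/NTZ, 0.53 in WT/NTZ and 0.06 in WT/PEG. These points share library depth and the cell makeup of each biopsy.

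Over all 44 libraries the genes whose log2 CPM was most like that of A4gnt were Muc6 (Spearman's rho 0.921), Gne (0.916), Tmem178 (0.902), Tcaf2 (0.900) and Glis3 (0.885). Gne encodes the first enzyme of sialic acid synthesis. Galnt6 stood at 0.759, and B4galnt3 at -0.765, which is near the end of the order. Over the 24 KO libraries, where genotype does not set the order, the nearest were Nbas (0.920), Lman1 (0.893), Rcn1 (0.882), Srpr (0.878) and Tmem45a (0.877), and Muc6 stood at 0.795 as number 40. Lman1 is a cargo receptor between the endoplasmic reticulum and the Golgi, and Srpr is part of the receptor for the signal recognition particle.

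Other genes of sugar chains were taken from a list by role, named other O-glycan genes here. Some of its members act mainly on glycolipids, St3gal5 and Gal3st1 among them, so its counts are not counts of mucin enzymes. Of 70 other O-glycan genes 60 were tested, and 37 of the 60 were called in KO/PEG against WT/PEG, 17 higher and 20 lower, beside 74.6% of all genes tested (37.5% higher and 37.2% lower), with a median log2 fold change of -0.14. Both core 1 genes were lower: C1galt1, the core 1 synthase, at -0.85 ± 0.16 (edgeR adjusted p = 6.06e-06), and its chaperone C1galt1c1 at -0.38 ± 0.11 (adjusted p = 0.00266). Of 15 initiation enzymes beside Galnt6, 2 were higher and 5 lower, the largest being Galnt13 (-1.83 ± 0.42) and Galnt7 (-0.74 ± 0.26). Of 17 chain extension and branching genes, 5 were higher and 7 lower, the largest being B3galt2 (-1.72 ± 0.57) and B3gnt2 (-1.71 ± 0.42), which extends polylactosamine chains.

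The capping genes held the largest differences of the list. Abo, which encodes the blood group A and B transferase, was 37.6-fold higher in KO/PEG than in WT/PEG (log2 fold change 5.23 ± 0.41, edgeR adjusted p = 3.97e-14). B4galnt2, which makes the Sda antigen, was 9.54-fold lower (-3.25 ± 0.40, adjusted p = 2.66e-09). Fut1, which makes H antigen as Fut2 does, was 7.07-fold higher (2.82 ± 0.44, adjusted p = 3.95e-07), so the pair differed in direction. Of 12 sialyltransferases 4 were higher and 4 lower, with St3gal4 11.7-fold higher (3.54 ± 0.26, adjusted p = 3.62e-15) and St3gal5 lower at -0.86 ± 0.11. Of 4 sulfation genes 2 were higher and 1 was lower, Gal3st1 at 1.16 ± 0.17 and Chst4 at -2.08 ± 0.44.

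Of 17 genes that make or carry sugar donors, 11 were higher and 1 was lower in KO/PEG, beside 37.5% and 37.2% of all genes tested, with a median log2 fold change of 0.66 beside 0.00 for all genes tested. In the sialic acid branch 3 of 4 were higher, with Gne at 1.31 ± 0.21 and Nans at 1.08 ± 0.14. Of the GDP-fucose genes 3 of 4 were higher, with Tsta3 at 1.09 ± 0.16 and Gmds at 0.98 ± 0.10. Of the Golgi transporters 3 of 4 were higher, with Slc35c1, the GDP-fucose carrier, at 0.87 ± 0.12 and Slc35a2 at 0.69 ± 0.12. In UDP-GlcNAc synthesis 2 of 5 were higher, Gfpt1 at 0.59 ± 0.18 and Pgm3 at 0.33 ± 0.12.

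**Figure D5:**
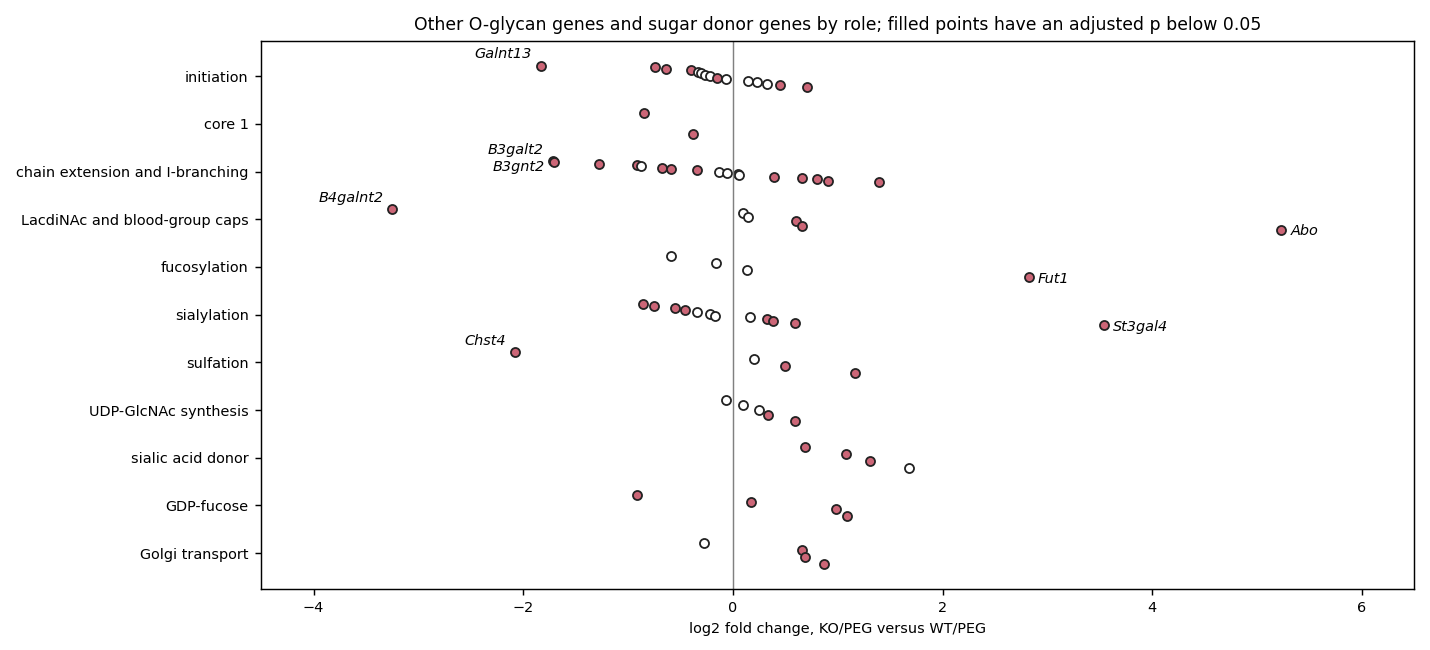
Log2 fold change between KO/PEG and WT/PEG (horizontal axis) of the other O-glycan genes and the sugar donor genes, each a point, by role (vertical axis). Filled points passed the test, and names stand beside those of them beyond 1.5 in either direction, such as Abo (5.23), St3gal4 (3.54) and B4galnt2 (-3.25).

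Of the 60 other O-glycan genes tested, 3 were higher and 1 was lower in KO/NTZ than in KO/PEG, which is near the 5.56% of all genes tested: St6galnac6 (0.50 ± 0.11, edgeR adjusted p = 0.00316), St3gal4 (0.90 ± 0.22, adjusted p = 0.0104) and St3gal1 (0.58 ± 0.16, adjusted p = 0.021), which are sialyltransferases, and Gcnt2, the I-branching enzyme (-0.55 ± 0.13, adjusted p = 0.00714). None of the 17 sugar donor genes passed. In WT mice 0 of the 60 and 0 of the 17 passed. Of the mucins and partners, Muc5b was the exception to a lack of NTZ calls in KO mice. It was between 1.60 and 19.5 CPM in KO/PEG (median 8.45) and between 0.848 and 3.72 CPM in KO/NTZ (median 1.58), 4.69-fold lower (log2 fold change -2.23 ± 0.35, adjusted p = 5.12e-05).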

How the data were processed

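Messenger RNA of all 44 libraries was analysed, with groups taken from the labels. The authors estimated reads per GRCm38 transcript with kallisto 0.42.4 (per the labels) and deposited the expected counts of 94080 transcripts without normalization. Of these 92372 were paired with gene names through GENCODE vM21. The other 1708 held 0.329% to 1.3% of a library. Counts were summed per gene and rounded. Genes with low counts were left out by filterByExpr (minimum count 10, minimum total 15). edgeR 4.0.16 (R 4.3.3) was fitted to all 44 libraries with TMM normalization and 1 mean per group, and the quasi-likelihood test was adjusted by Benjamini-Hochberg at 0.05. The study used Sleuth, which needs repeated estimates per library that were not used here. SE is the log2 fold change divided by the root of the F statistic. Log2 CPM, used for correlations and limma-trend, had a prior count of 2, and edgeR fold changes kept the default of edgeR. Correlations used 100000 permutations, or all orders for up to 7 libraries (exact).

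The alternatives were RLE size factors, no filter, DESeq2 1.42.0, limma-trend (limma 3.58.1), length-scaled counts, the most abundant transcript, only the groups compared, and sets of libraries by animal number. Leaving out each library or those with squamous markers, and fitting all animals numbered below 100 alone, were chosen after the data were seen. The enzymes and gene lists were chosen with earlier results of these data known. Genes outside the list were named by role (up to 2 a role by size), by p in the NTZ comparisons, and by likeness to A4gnt (5 per set). The fits were also run on simulated data in which few genes differed, as many raised as lowered. Such data cannot show how the fits behave where 74.6% of genes tested are called, as between KO/PEG and WT/PEG. The WT/PEG pair with a shared animal number differed by a chi-square of 16.9 per degree of freedom, number 11 of 55 pairs, and was kept as 2 samples. Floors cover counting error only, and kallisto divides shared reads, so single transcripts are less certain than their sum. Figures used matplotlib 3.10.9.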

Additional observations from a re-analysis of the deposited data

Results flagged for a closer look

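Gcnt4 in WT/NTZ replicate 1 was at 0.369 CPM, apart from the other WT/NTZ libraries, of which the next was at 0.909 CPM. The gap was 0.546 of the range of the group, above Dixon's critical value for 9 libraries. In all, 10 groups were examined, and chance gives such a gap in about 1 of 20 groups. Gcnt4 passed the test in no comparison.

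The NTZ effect on Muc5b differed between KO and WT mice by -2.40 ± 0.57 on the log2 scale (interaction by edgeR, adjusted p = 0.0254): it was -2.23 ± 0.35 in KO mice and 0.17 ± 0.45 in WT mice, where Muc5b was at most 1.36 CPM. None of the 8 enzymes tested differed in this way.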

How the results depend on the processing

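The 7 calls between KO/PEG and WT/PEG and the 7 between KO/NTZ and WT/NTZ were kept, gene by gene, with RLE size factors, no filter, DESeq2, limma-trend, length-scaled counts, the WT/PEG pair with a shared animal number summed, the libraries numbered 110 left out, only KO animals numbered below 100, only the groups compared, and without the libraries with squamous markers, and the former also with animals numbered 100 or above alone. With the most abundant transcript each was 6, without Gcnt1. Leaving out each library gave 7 to 7 and 6 to 7 calls. The count between KO/NTZ and KO/PEG was 1 and became 2 (Fut9, Galnt6) with limma-trend, with DESeq2 and with KO animals numbered below 100 only, and 0 with only the groups compared. Leaving out each library gave 0 to 2. Galnt6 was gained without 1 of 6 libraries, KO/PEG replicates 2, 7 and 12 or KO/NTZ replicates 5, 10 and 11, with adjusted p between 0.0209 and 0.0487. NTZ in WT mice and the interaction gave 0 under each alternative run. Of the 32 relations 2 passed by rho, 4 without the 2 farthest libraries, 0 within animals numbered below 100 and 1 of the 16 that could be computed within those numbered 100 or above. No paired analysis was possible because replicates are numbered in accession order and only 1 animal number (110, in KO/PEG and KO/NTZ) stands in more than 1 group. Animal number went with group: every WT/PEG library was numbered 100 or above, and every KO/NTZ library but number 110 below 100. KO/PEG and WT/NTZ held both. The sets by animal number therefore cannot fully tell animal number from group.

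Log2 fold changes that turned sign were small and uncalled in the main result, apart from Gcnt1, whose difference between KO/PEG and WT/PEG was -0.28 for its most abundant transcript. Between KO/PEG and WT/PEG Gcnt4 was 0.07 with KO animals numbered below 100. Between KO/NTZ and KO/PEG Gcnt1 was 0.01 without the libraries numbered 110, 0.04 with KO animals numbered below 100, 0.05 with all animals numbered below 100 and 0.64 for its most abundant transcript, and Fut2 was -0.04 and -0.03 with KO animals and with all animals numbered below 100. In WT mice Fut2 was 0.01 with RLE size factors and with DESeq2 and 0.02 with only the groups compared, Galnt6 was -0.01 with animals numbered 100 or above, and Gcnt1 was -0.32 for its most abundant transcript. Without the libraries with squamous markers A4gnt was 0.09, Fut2 0.11 and Gcnt1 -0.13 in WT mice. In the interaction Gcnt3 was -0.01 with RLE size factors and with DESeq2, -0.03 without the libraries numbered 110, -0.14 with KO animals numbered below 100 and 0.00 without the libraries with squamous markers, Fut2 was -0.03 with KO animals numbered below 100, and Gcnt1 was 0.96 for its most abundant transcript and 0.07 without the libraries with squamous markers. The cause was not tested. Depth limits B3gnt6 and St6galnac1, which were left out by the filter, and single libraries of Gcnt4 and, in KO mice, of B4galnt3 and Fut9.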
